A study of Mus musculus with 57 samples.

Results

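The 6 potassium channel genes Kcnk13, Kcnk6, Kcnj2, Kcna3, Kcnn4 and Kcnd1 were followed in CD11b-positive cells of mouse brain with and without the nucleotide receptor P2RY12. They were taken by gene symbol, and all 6 were present among the 50565 genes of the first count table and the 53278 genes of the second. All 6 passed the filter on low counts in both tables, which left 31709 and 15857 genes for testing.

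Both experiments compared wild-type (WT) mice with P2RY12-deficient (KO) littermates, and the labels call the cells microglia, the resident macrophages of the brain. The sex experiment held 18 samples of adult mice: males as 4 WT and 5 KO samples, and females as 4 WT and 5 KO. The labels of the LPS experiment give 4 groups of libraries, WT ns (8), WT LPS (9), KO ns (8) and KO LPS (8), where LPS is bacterial lipopolysaccharide, injected intraperitoneally (1 mg/kg). What ns stands for is not defined, and the labels give neither the time after LPS, nor the sex of these animals, nor the KO allele or its promoter. A single treatment text with the LPS dose stands on every sample, the sex experiment included, where no sample carries an LPS label of its own. The labels do not say whether each library is a separate animal, so p-values measure the spread between these samples.

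Microglial potassium channels set the membrane potential and the amount of potassium that leaves the cell. P2Y12, the protein made from P2ry12, signals through inhibitory G proteins, and in microglia its activation by ADP increases an outward potassium current. That current is needed for the chemotactic response to ADP, and potassium efflux is also a trigger of the NLRP3 inflammasome.

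Each gene encodes a channel of a different kind. Kcnk13 encodes THIK-1, a two-pore-domain leak channel that holds the resting potential of microglia and is opened further through P2Y12. Kcnk6 encodes TWIK-2, another two-pore-domain channel, which carries potassium efflux in macrophages. Kcnj2 encodes the inward rectifier Kir2.1. Kcna3 encodes Kv1.3, a voltage-gated channel known from activated microglia and T cells, and Kcnd1 encodes Kv4.1, a voltage-gated channel of the transient type. Kcnn4 encodes KCa3.1, which is opened by calcium through bound calmodulin.

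The sequences before the start sites of 3 of these genes are shown because 2 of them, Kcna3 and Kcnk13, rose with LPS in WT samples, while Kcnn4, not called, held the NF-kappaB match described after them. Each is the 250 bases before the annotated start on the plus strand of GRCm38.p6, from RefSeq, which held 4 of the 6 genes. The windows are chr12:99964249-99964498 for Kcnk13, chr3:107035912-107036161 for Kcna3 and chr7:24370013-24370262 for Kcnn4. Capitals mark matches to 5 motifs searched on both strands: the NF-kappaB consensus, ISRE (GAAA, any 2 bases, GAAA), AP-1 (TGANTCA), PU.1 (GAGGAAGT) and the E-box (CACGTG).
Kcnk13: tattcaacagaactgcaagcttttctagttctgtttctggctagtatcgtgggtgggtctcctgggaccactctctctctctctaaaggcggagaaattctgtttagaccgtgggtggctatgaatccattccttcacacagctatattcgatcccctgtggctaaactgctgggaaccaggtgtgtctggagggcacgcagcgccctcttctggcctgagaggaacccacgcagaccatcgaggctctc
Kcna3: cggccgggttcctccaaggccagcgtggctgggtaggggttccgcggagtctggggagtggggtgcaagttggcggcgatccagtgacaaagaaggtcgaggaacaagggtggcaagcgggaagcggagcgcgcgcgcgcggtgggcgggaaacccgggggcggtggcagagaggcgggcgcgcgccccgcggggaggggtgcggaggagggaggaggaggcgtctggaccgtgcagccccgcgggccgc
Kcnn4: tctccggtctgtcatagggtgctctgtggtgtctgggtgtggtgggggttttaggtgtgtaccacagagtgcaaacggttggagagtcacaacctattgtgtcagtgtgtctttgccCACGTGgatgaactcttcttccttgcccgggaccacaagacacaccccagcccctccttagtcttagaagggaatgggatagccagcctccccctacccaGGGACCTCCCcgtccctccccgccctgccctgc
Neither Kcnk13 nor Kcna3 held a match to any of the 5 motifs in this window. Kcnn4 held an NF-kappaB match from 33 to 24 bases before the start and an E-box that begins 133 bases before it, and these matches do not overlap. The Kcnj2 window, of a gene also not called with LPS, held an E-box that begins 84 bases before the start and no NF-kappaB match. Among 32851 RefSeq windows of the same length, 7.25% held the NF-kappaB consensus, 2.98% ISRE, 6.75% AP-1, 2.44% PU.1 and 6.02% the E-box. The Kcna3 window was 74.4% G and C with 31 CG pairs, the Kcnk13 window 52.8% with 8 and the Kcnn4 window 58.8% with 6, against medians of 52.4% and 6 over all windows. A match is a description of letters, not of binding.

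The count table of the sex experiment places the genes on GRCm39. Kcnk13 lies on chromosome 12 from 99928132 to 100028941, Kcnj2 on chromosome 11 from 110956990 to 110967651, Kcna3 on chromosome 3 from 106943486 to 106947223, Kcnn4 on chromosome 7 from 24069750 to 24084635 and Kcnd1 on chromosome X from 7686907 to 7704517, all on the plus strand. Kcnk6 lies on the minus strand of chromosome 7 from 28921353 to 28931947. The gene length in that table equals the whole span for these 6 genes, introns included, so reads of overlapping genes cannot be told apart there. Kcna3 shares 404 bases with AI504432 on the same strand, and AI504432 had the higher mean level, 9.26 CPM (counts per M counts after scaling, M standing for mega) against 5.75 CPM. Kcnk13 overlaps Gm51957 and Kcnj2 overlaps Gm53651, both on the opposite strand and at 7.57 and 3.05 CPM. No annotated gene overlaps Kcnk6, Kcnn4 or Kcnd1.

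Libraries were checked before the channels were compared. Totals ran from 58.5 to 318.5 M counts in the sex experiment and from 15.9 to 168.4 M in the LPS experiment. Among nonzero counts up to 20, 79 to 89.2% were even in the sex experiment and 39.7 to 45.6% in the LPS experiment. The totals may therefore not count the same unit, and the reason was not tested. P2ry12 was at 4895 ± 1189 CPM in male WT (SD, n = 4), 482 ± 36.4 in male KO (n = 5), 4268 ± 873 in female WT (n = 4) and 376 ± 55.9 in female KO (n = 5). Of 8 microglial markers, P2ry12 among them, 7 were present in the count table of the sex experiment. Those 7 exceeded 1 CPM in every library there, and all 8 did so in every library of the LPS experiment. In the sex experiment 2 WT libraries, male WT 5 and female WT 2, were high in neutrophil markers, with a summed level of 48214 and 28621 CPM against 720 to 7667 CPM in the other 16. Their monocyte markers were also higher, at 2165 to 3913 CPM against 133 to 712 CPM, and their microglial markers lower, at 19114 to 19257 CPM against 21061 to 32414 CPM. Results are therefore also given without those 2 libraries.

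In the LPS experiment the 4 WT libraries of library number 2 are shown apart and enter no comparison. Under the labels WT ns 1 and WT ns 5 stood libraries with P2ry12 at 481 and 927 CPM and Saa3, an acute-phase gene, at 1781 and 2491 CPM, whereas the other 6 WT ns libraries had P2ry12 at 3516 to 5406 CPM and Saa3 at 1.52 to 64.3 CPM. Under WT LPS 1 and WT LPS 6 stood libraries with P2ry12 at 4461 and 12154 CPM and Saa3 at 1.59 and 3.21 CPM. Setting them apart rests on these measured values, so called WT results, and uncalled LPS and genotype differences whose sign turns, are also given with every library in its label group. The counts of WT LPS 8 and WT LPS 9 were nearly alike, with a chi-square per degree of freedom of 1.86 where the next closest pair of a group had 8.31. They were counted as 1 sample, which left 6 WT ns, 6 WT LPS, 8 KO ns and 8 KO LPS samples.

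On the first principal component, which held 41.8% of the variance, 6 samples of the LPS experiment stood apart, 2 of them among the WT libraries of number 2. These were WT ns 5, WT LPS 6, WT LPS 7, KO ns 5, KO ns 6 and KO LPS 5, at scores of 78.4 to 186.9 against -65.1 to -7.64 for the other 26. Plec, a gene with a very long transcript, was at 0.34 to 1.96 CPM in them against 12.0 to 82.9 CPM, and the mitochondrial mt-Rnr1 at 521 to 10830 CPM against 71.3 to 649 CPM. All belong to library set 2, where they are the 4 libraries of number 2 and 2 libraries of number 3. The 2 library sets differ in Xist, the RNA that coats an inactivated X, at 0.68 to 2.11 CPM in set 1 and 786 to 2702 CPM in set 2, so set and sex cannot be told apart there.

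Kcnk6 was the most abundant of the 6 channel transcripts and Kcna3 and Kcnn4 the least. The values per kb below take the counts of the LPS experiment to cover exons only, which was not checked. Per kb of exon, the 6 WT ns samples had 88.0 ± 12.7 CPM of Kcnk6 (SD), 21.8 ± 3.23 of Kcnk13, 21.7 ± 4.90 of Kcnd1, 12.8 ± 0.93 of Kcnj2, 1.08 ± 0.25 of Kcnn4 and 0.86 ± 0.31 of Kcna3. Kcnk13 and Kcnd1 did not differ beyond their spread, nor did Kcnn4 and Kcna3. Among 88 other genes whose symbols begin with Kcn, the highest per kb were Kcnk12, which encodes THIK-2, the closest relative of THIK-1, at 11.2 CPM, the potassium channel interacting protein gene Kcnip3 at 7.20 CPM and the beta subunit gene Kcnab2 at 4.22 CPM. After LPS the per kb order in WT was Kcnk6 at 89.9 ± 25.99 CPM, Kcnk13 at 34.9 ± 6.94, Kcnj2 at 16.5 ± 7.69, Kcnd1 at 7.81 ± 4.54, Kcna3 at 2.43 ± 0.74 and Kcnn4 at 0.99 ± 0.51. In KO ns samples it was Kcnk6 at 88.8 ± 33.8, Kcnk13 at 21.2 ± 7.17, Kcnd1 at 15.4 ± 5.82, Kcnj2 at 14.2 ± 3.07, Kcnn4 at 0.59 ± 0.27 and Kcna3 at 0.38 ± 0.22 CPM per kb. In KO LPS samples it was Kcnk6 at 86.04 ± 26.4, Kcnk13 at 25.2 ± 4.49, Kcnj2 at 13.0 ± 5.37, Kcnd1 at 8.10 ± 3.47, Kcna3 at 2.14 ± 1.00 and Kcnn4 at 0.76 ± 0.36.

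The sex experiment asked whether loss of P2RY12 changes these transcripts in males and females. None of the 6 genes was called between KO and WT in males, in females or averaged over the sexes (edgeR's quasi-likelihood test, Benjamini-Hochberg adjusted p under 0.05 over all genes tested). DESeq2 called none either, and at an unadjusted p under 0.05 there were 2 in males and 0 in females and in the average. Over all genes edgeR called 0.00946% in males, 0.164% in females and 0.432% in the average, and DESeq2 called 24, 213 and 359 genes. In these bulk samples fewer cells of a type and less RNA per cell cannot be told apart.

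**Figure D1:**
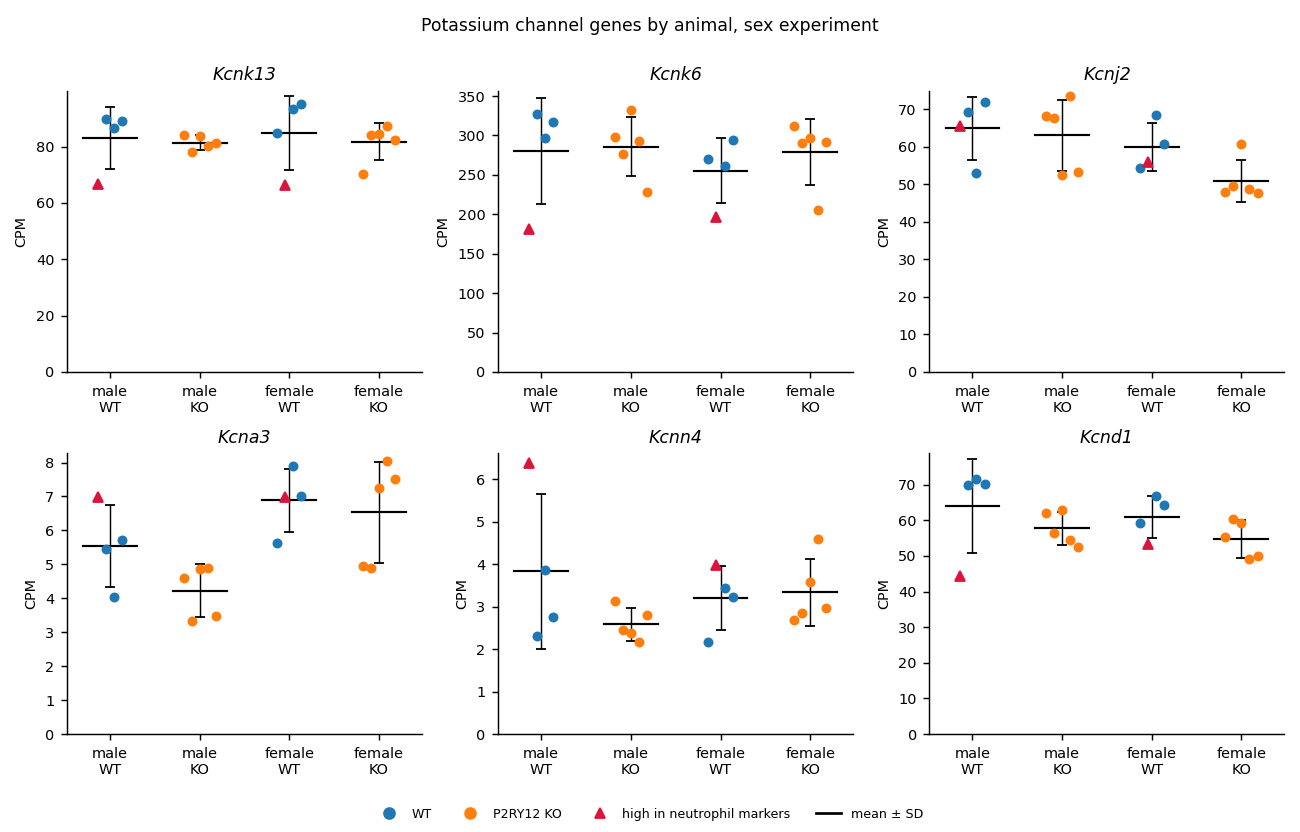
CPM of the 6 channel genes in each library of the sex experiment (points; blue WT, orange KO, red triangles the 2 WT libraries high in neutrophil markers), with group mean and SD over all libraries. Those 2 WT libraries hold the lowest Kcnk13 and Kcnk6 levels of their groups, and male WT 5 the highest Kcnn4 level of all, 6.39 CPM.

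Kcnk13, the leak channel opened through P2Y12, differed little between the genotypes against its spread. It was at 66.7, 86.6, 89.04 and 89.7 CPM in male WT and at 78.1, 80.1, 81.1, 83.9 and 84.2 CPM in male KO. It was at 66.4, 85.0, 93.4 and 95.1 CPM in female WT and at 70.3, 82.5, 84.0, 84.6 and 87.5 CPM in female KO. The lowest WT value in each sex is the library high in neutrophil markers, and with it the groups overlap in both sexes. Averaged over the sexes the log2 fold change was -0.04 ± 0.07 (SE, adjusted p 0.978), with a 95% interval of -0.19 to 0.11. Without those 2 libraries it was -0.14 ± 0.05 (adjusted p 0.441), and all 3 remaining male WT values lay above the 5 male KO values. How many of all genes separate in this way was not counted. The female groups still overlapped, with WT from 85.0 CPM and KO up to 87.5 CPM.

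Kcnk6 ran from 182 to 327 CPM in male WT, 229 to 332 in male KO, 197 to 294 in female WT and 205 to 312 in female KO. The ranges overlapped throughout. Its log2 fold change averaged over the sexes was 0.08 ± 0.11 (adjusted p 0.965), with a 95% interval of -0.16 to 0.32. Without the 2 libraries high in neutrophil markers the sign turned, to -0.06 ± 0.08 (adjusted p 1).

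The inward rectifier Kcnj2 was at 52.9 to 71.9 CPM in male WT and 52.4 to 73.4 CPM in male KO. In females it was at 54.3, 55.9, 60.6 and 68.5 CPM in WT and at 47.7, 47.9, 48.7, 49.4 and 60.7 CPM in KO. In females 4 of 5 KO values lay below all 4 WT values. How many of all genes come as close to separating was not counted. The female log2 fold change was -0.23 ± 0.11 (adjusted p 0.968) and the male one -0.04 ± 0.11 (adjusted p 0.997), and the difference between the sexes, tested as an interaction, was -0.19 ± 0.16 (adjusted p 0.999).

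Kcna3 was at 4.04, 5.46, 5.71 and 6.98 CPM in male WT and at 3.33, 3.47, 4.59, 4.86 and 4.89 CPM in male KO. It was at 5.64 to 7.89 CPM in female WT and 4.90 to 8.03 CPM in female KO. The male groups overlap only through the WT library at 4.04 CPM, and the female groups overlap widely. Such near separation was not counted over all genes. In males the log2 fold change was -0.39 ± 0.19 (adjusted p 0.719), and in females it was -0.08 ± 0.19 (adjusted p 1). Between the sexes, averaged over genotype, Kcna3 was higher in females by 0.47 ± 0.13 on the log2 scale, which did not pass the test (adjusted p 0.117). In that comparison 0 of the 6 genes were called beside 0.861% of all genes, and 2, Kcna3 and Kcnj2, had an unadjusted p under 0.05. DESeq2 called 1, Kcna3, at 0.46 ± 0.14 (adjusted p 0.0444), beside 754 genes in all. Leaving out male WT 5 in edgeR called Kcna3 at 0.53 ± 0.13 (adjusted p 0.0471), beside 495 genes in all. In this table Kcna3 shares bases with AI504432, the gene whose level followed it most closely over the 18 samples (Pearson r of log2 CPM 0.868), so how the reads divide between these genes is uncertain.

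Kcnn4 was at 2.31, 2.76, 3.87 and 6.39 CPM in male WT and 2.16 to 3.14 CPM in male KO, with 2.16 to 3.97 CPM in female WT and 2.69 to 4.60 CPM in female KO. The value of 6.39 CPM is male WT 5, the library highest in neutrophil markers. The male log2 fold change of -0.57 ± 0.25 (adjusted p 0.719) became -0.20 ± 0.22 (adjusted p 1) without the 2 libraries high in those markers. The part of other cells in this difference was not tested.

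Kcnd1 was at 44.3, 69.8, 70.2 and 71.6 CPM in male WT and at 52.5, 54.4, 56.5, 62.1 and 62.998 CPM in male KO. It was at 53.4, 59.1, 64.1 and 66.7 CPM in female WT and at 49.0, 49.8, 55.4, 59.3 and 60.4 CPM in female KO. The lowest WT value in each sex is again the library high in neutrophil markers, and with it the groups overlap. Without it the female groups still overlap, with WT from 59.1 CPM and KO up to 60.4 CPM. With all samples the averaged log2 fold change was -0.15 ± 0.08 (adjusted p 0.63). Without the 2 libraries it was -0.25 ± 0.06 (adjusted p 0.036), which made Kcnd1 the 1 called gene of the 6, beside 0.969% of all genes (0.0815% lower in KO). The levels were then 70.5 ± 0.96 CPM in male WT (SD, n = 3) against 57.7 ± 4.67 in male KO (n = 5), and 63.3 ± 3.85 in female WT (n = 3) against 54.8 ± 5.23 in female KO (n = 5). Leaving out these 2 libraries was chosen after seeing the data, and it leaves 3 WT samples per sex.

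Genotype and sex showed no interaction for any of the 6 genes, with 0 called, 0 at an unadjusted p under 0.05, 0 by DESeq2 and 0% of all genes called. The interval of the interaction was widest for Kcnn4, from -0.12 to 1.38 on the log2 scale. Kcnd1, on the X chromosome, differed between females and males by -0.07 ± 0.08 (adjusted p 0.721).

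**Figure D2:**
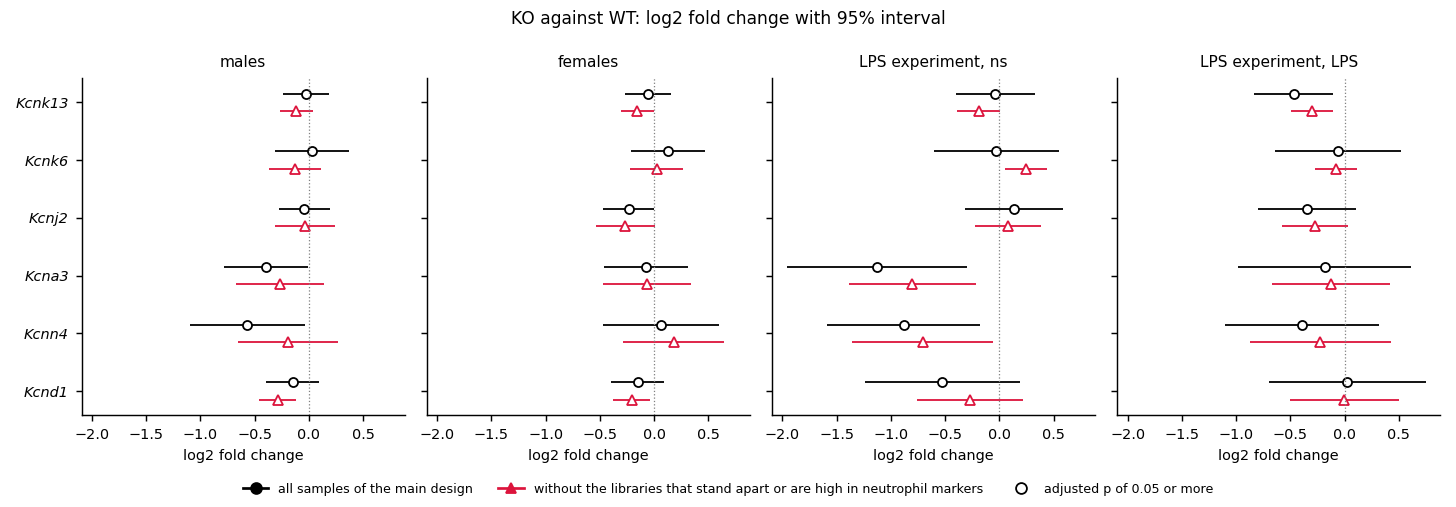
Log2 fold change of KO against WT with its 95% interval for the 6 genes in males, females, ns samples and LPS samples; black circles are all samples of the main design, red triangles leave out the libraries high in neutrophil markers (left pair) or standing apart (right pair), and filled symbols have an adjusted p under 0.05. No symbol is filled, and in ns and LPS samples the intervals of Kcna3, Kcnn4 and Kcnd1 are the widest.

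In the LPS experiment the same genotype question was asked of ns samples and of LPS samples. P2ry12 was lower in KO by 2.62 ± 0.22 on the log2 scale in ns samples (adjusted p 1.74e-08) and by 2.45 ± 0.22 in LPS samples (adjusted p 7.69e-08). None of the 6 channel genes was called in either, by edgeR or by DESeq2. Over all genes edgeR called 0.0883% and 0.0946%, and DESeq2 called 46 and 50 genes. At an unadjusted p under 0.05 there were 2 in ns samples, Kcna3 and Kcnn4, and 1 in LPS samples, Kcnk13. With the samples standing apart left out, 0 of the 6 were called as well, beside 0.364% of all genes in ns and 0.282% in LPS samples.

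**Figure D3:**
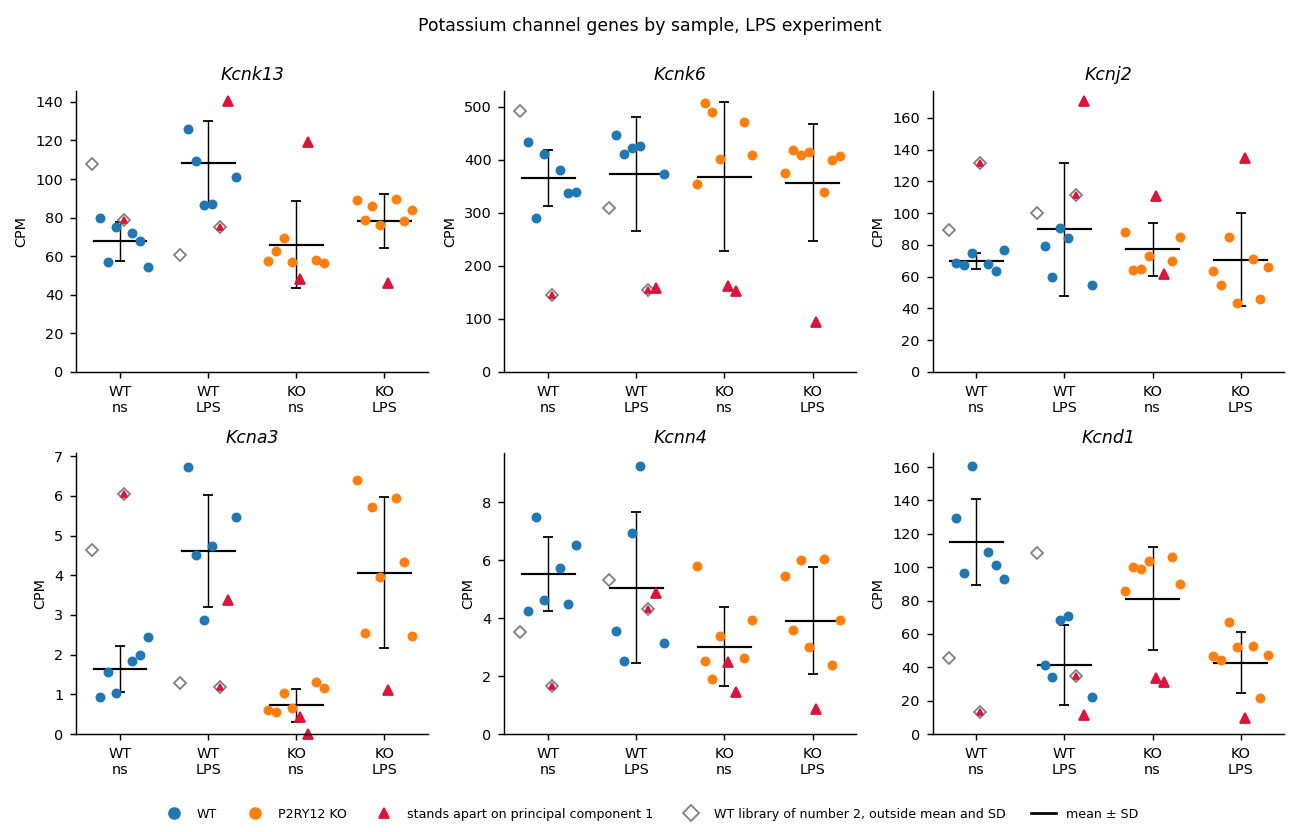
CPM of the 6 channel genes in each sample of the LPS experiment (blue WT, orange KO, red triangles the samples standing apart, open diamonds the WT libraries of number 2), with mean and SD without the diamonds. Outside the diamonds Kcna3 is higher and Kcnd1 lower in WT LPS than in WT ns with no overlap, which was not counted over all genes. The diamonds of Kcna3 lie on the opposite side.

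Kcna3 in ns samples was at 0.92, 1.69 and 2.44 CPM in WT (lowest, median, highest of 6) and at 0, 0.64 and 1.30 CPM in KO (of 8). The KO sample at 0 counts, KO ns 6, stands apart on the first principal component. The log2 fold change was -1.13 ± 0.41 (adjusted p 0.448), with a 95% interval of -1.96 to -0.30, and without the samples standing apart -0.80 ± 0.28 (adjusted p 0.263). With every library in its label group it was -1.79 ± 0.48 (adjusted p 0.16). The KO values were mostly lower, but the call was not made under any of the 13 alternatives.

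Kcnn4 in ns samples was at 4.26, 5.18 and 7.47 CPM in WT and at 1.44, 2.57 and 5.79 CPM in KO. The KO sample at 5.79 CPM reaches into the WT range. Its log2 fold change was -0.88 ± 0.34 (adjusted p 0.472), and -0.71 ± 0.31 (adjusted p 0.364) without the samples standing apart. The highest WT values, 7.47 and 6.54 CPM, were in WT ns 3 and WT ns 8, which also had the highest summed neutrophil markers of the ns samples, 17265 and 16058 CPM. KO ns 1, the highest KO value, had 6188 CPM of these markers, and KO ns 6, the lowest, had 10152 CPM. The part of these markers in the difference was not tested.

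Kcnk13 in LPS samples was at 86.6, 105.4 and 140.7 CPM in WT and at 46.3, 81.1 and 89.8 CPM in KO. The groups overlap between 86.6 and 89.8 CPM, and the highest WT and the lowest KO value both belong to samples standing apart. The log2 fold change was -0.47 ± 0.18 (adjusted p 0.642), -0.30 ± 0.10 without the samples standing apart (adjusted p 0.2) and -0.33 ± 0.19 with every library in its label group (adjusted p 0.758).

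With all samples of the comparison the remaining genotype differences were smaller against their errors. Kcnk13 in ns samples differed by -0.04 (adjusted p 0.924), and by -0.19 ± 0.10 (adjusted p 0.411) without the samples standing apart. Over the 13 alternatives it ran from -0.31 to 0.13. Kcnn4 in LPS samples differed by -0.39 (adjusted p 0.994), with alternatives from -0.70 to 0.05, and by -0.22 ± 0.31 (adjusted p 0.843) without the samples standing apart. Kcnk6 differed by -0.03 ± 0.28 in ns and -0.06 ± 0.28 in LPS samples, and Kcnj2 by 0.14 ± 0.22 and -0.35 ± 0.22. Without the samples standing apart the ns value of Kcnk6 changed sign, to 0.25 ± 0.09 (adjusted p 0.293). Kcnd1 differed by -0.53 ± 0.35 in ns samples and 0.03 ± 0.35 in LPS samples, and when those samples were left out by -0.27 ± 0.24 (adjusted p 0.673) and -0.0015 ± 0.24 (adjusted p 0.998). With every library in its label group the ns value of Kcnj2 was -0.05 ± 0.21 (adjusted p 0.959), that of Kcnk6 0.05 ± 0.27 (adjusted p 0.968) and that of Kcnd1 -0.22 ± 0.38 (adjusted p 0.905). In LPS samples Kcna3 differed by -0.18 ± 0.39 (adjusted p 1), and by 0.10 ± 0.46 (adjusted p 0.99) in label groups. There Kcnk6 was at 0.09 ± 0.27 (adjusted p 0.99) and Kcnd1 at -0.17 ± 0.38 (adjusted p 0.989). With all samples of the comparison the 95% intervals of Kcnk6 ran from -0.61 to 0.55 and from -0.64 to 0.52, so these samples leave room for changes of those sizes.

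LPS moved 3 of the 6 channel genes in WT and 2 in KO, beside 30.3% and 28.3% of all genes tested. Over all genes 14.8% were higher and 15.5% lower in WT, and 13.1% higher and 15.2% lower in KO. Kcna3 rose and Kcnd1 fell in both genotypes, Kcnk13 rose in WT, and Kcnk6, Kcnj2 and Kcnn4 were not called in either. DESeq2 called 3 and 2 as well, beside 5540 and 5048 genes in all. With every library in its label group 0 of the 6 were called in WT, as were 0 of all genes, and 1 was called in KO. With label groups but none of the samples standing apart, 3 were called in each genotype. Without the samples standing apart 3 of 6 were called in each genotype, beside 54.6% of all genes in WT and 55% in KO, so these shares of the channel genes are close to the background.

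**Figure D4:**
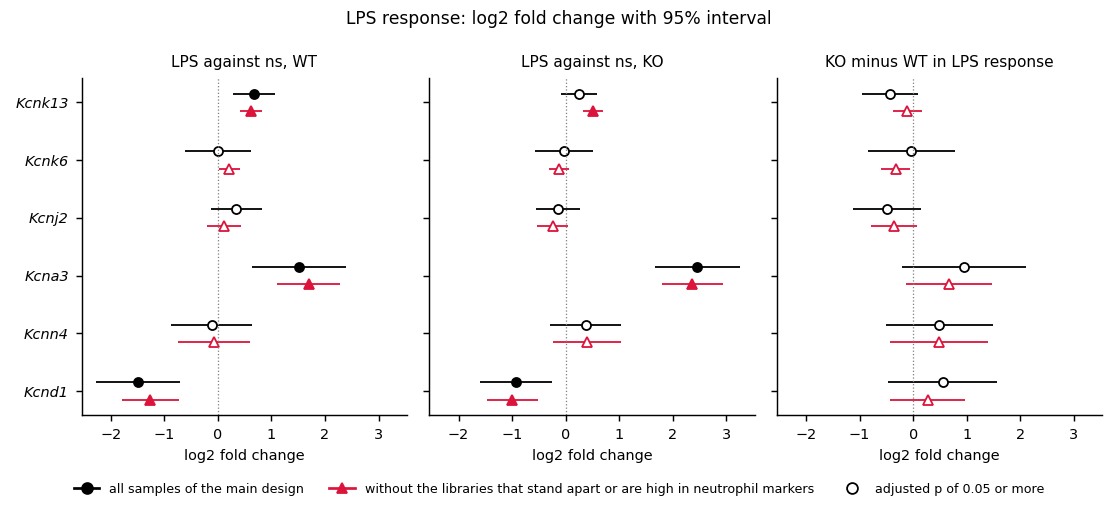
Log2 fold change of LPS against ns with its 95% interval in WT, in KO, and the difference between genotypes; black circles are all samples of the main design, red triangles leave out the samples standing apart, and filled symbols have an adjusted p under 0.05. Kcna3 and Kcnd1 are filled in both genotypes, and no difference between genotypes is filled.

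Kcna3, the Kv1.3 gene, had the largest rise. In WT it went from 0.92, 1.69 and 2.44 CPM (lowest, median, highest) in ns to 2.87, 4.63 and 6.73 CPM after LPS. In KO it went from 0, 0.64 and 1.30 CPM to 1.11, 4.14 and 6.41 CPM. The WT groups did not overlap, and the KO groups overlapped through KO LPS 5, a sample standing apart. The WT groups leave out the libraries set apart by their P2ry12 and Saa3 values. How many of all genes separate as fully was not counted, here or for Kcnd1 and Kcnk13 below. The log2 fold change was 1.52 ± 0.43 in WT (adjusted p 0.00804, 2.86-fold) and 2.46 ± 0.39 in KO (adjusted p 1.58e-05, 5.51-fold), and without the samples standing apart 1.69 ± 0.28 (adjusted p 2.21e-05) and 2.37 ± 0.28 (adjusted p 1.61e-07). The difference between genotypes was 0.95 ± 0.56 (adjusted p 0.754), with a 95% interval of -0.21 to 2.10.

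The WT libraries of number 2 went against their labels in Kcna3. Those under WT ns 1 and WT ns 5 were at 4.64 and 6.05 CPM, above the 6 other WT ns samples, and the pair under the label WT LPS, numbers 1 and 6, had 1.29 and 1.17 CPM, below the 6 other WT LPS samples. With these 4 in their label groups the WT log2 fold change was 0.57 ± 0.46 (adjusted p 0.456).

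Kcnd1, the Kv4.1 gene, fell. In WT it went from 92.6, 105.0 and 160.7 CPM in ns to 11.6, 37.6 and 70.8 CPM after LPS, with no overlap. In KO it went from 31.3, 94.4 and 106.1 CPM to 9.90, 47.0 and 67.4 CPM, where the 2 KO ns samples at 31.3 and 33.7 CPM are the ones standing apart. The log2 fold change was -1.49 ± 0.38 in WT (adjusted p 0.00391, 0.357-fold) and -0.93 ± 0.33 in KO (adjusted p 0.0325, 0.523-fold), and without the samples standing apart -1.26 ± 0.26 (adjusted p 0.000264) and -0.99 ± 0.23 (adjusted p 0.000874). With every library in its label group it was -0.98 ± 0.39 in WT (adjusted p 0.155) and -0.93 ± 0.39 in KO (adjusted p 0.0816). Those under WT ns 1 and WT ns 5 had 45.6 and 13.2 CPM, below the other WT ns samples, whereas WT LPS 1 had 108.7 CPM and WT LPS 6 had 34.7 CPM.

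Kcnk13, the THIK-1 gene, rose in WT from 54.5, 69.9 and 79.8 CPM in ns to 86.6, 105.4 and 140.7 CPM after LPS, with no overlap. In KO it was at 48.1, 57.6 and 119.3 CPM in ns and at 46.3, 81.1 and 89.8 CPM after LPS. The highest KO ns value and the lowest KO LPS value are both samples standing apart, and without them the 6 KO ns samples ran from 56.6 to 69.3 CPM and the 7 KO LPS samples from 76.0 to 89.8 CPM. The log2 fold change was 0.68 ± 0.19 in WT (adjusted p 0.00763, 1.60-fold) and 0.25 ± 0.17 in KO (adjusted p 0.295). Without the samples standing apart it was 0.62 ± 0.10 in WT (adjusted p 1.36e-05) and 0.51 ± 0.09 in KO (adjusted p 5.52e-05), and with every library in its label group 0.41 ± 0.19 in WT (adjusted p 0.191). The call in KO was made only without the samples standing apart and in library set 1 alone, which holds none of them. The difference between genotypes was -0.43 ± 0.25 (adjusted p 0.754) with all samples and -0.11 ± 0.13 (adjusted p 0.975) without those standing apart.

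Kcnk6 was not called, with log2 fold changes of 0.00 ± 0.30 in WT and -0.03 ± 0.26 in KO. Its WT medians were 360 CPM in ns and 417 CPM after LPS, and its KO medians 405 and 403 CPM. The 4 samples standing apart that enter the comparisons had 93.9 to 162 CPM, the lowest of their groups, and without them the log2 fold changes were 0.21 ± 0.10 (adjusted p 0.0709) and -0.11 ± 0.09 (adjusted p 0.297). The 95% interval of the WT value then ran from 0.01 to 0.42. With every library in its label group the WT value was -0.07 ± 0.27 (adjusted p 0.889).

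Kcnj2 had WT medians of 68.2 CPM in ns and 81.8 CPM after LPS and KO medians of 71.6 and 64.8 CPM. Its log2 fold changes were 0.34 ± 0.24 in WT (adjusted p 0.284) and -0.14 ± 0.20 in KO (adjusted p 0.68). The highest value of each LPS group, 170.3 CPM in WT and 134.5 CPM in KO, is a sample standing apart. Kcnn4 had WT medians of 5.18 and 4.21 CPM and KO medians of 2.57 and 3.76 CPM, with log2 fold changes of -0.12 ± 0.37 (adjusted p 0.847) and 0.37 ± 0.32 (adjusted p 0.443). Its 95% intervals, from -0.87 to 0.64 in WT and from -0.29 to 1.03 in KO, allow changes in either direction. In label groups the WT value of Kcnn4 was 0.07 ± 0.34 (adjusted p 0.92).

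No channel gene was called for a genotype difference in its LPS response, with 0 of 6 by edgeR or DESeq2. In edgeR 0 had an unadjusted p under 0.05. Over all genes edgeR called 0% and DESeq2 called 3 genes. When the samples standing apart were left out the adjusted p was 0.975 for each of the 6, beside 0.00628% of all genes. In that fit 1 of the 6, Kcnk6, passed an unadjusted p under 0.05, with a difference of -0.33 ± 0.13 and a 95% interval of -0.60 to -0.05. Neutrophil markers did not move evenly in this experiment: their summed level had medians of 2549 CPM in WT ns, 2478 in WT LPS, 906 in KO ns and 2104 in KO LPS, with up to 17265 CPM in a WT ns sample. Microglial markers fell with LPS, from medians of 25977 to 12665 CPM in WT and from 24414 to 13921 CPM in KO. This sum includes P2ry12, with a mean of 4438 CPM in WT ns and 578 CPM in WT LPS. The part of other cell types in the LPS differences was not tested.

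The other genes of the Kcn family shifted mostly downward with LPS. Of 25 tested, 6 were higher and 11 lower in WT, beside 14.8% and 15.5% of all genes. The median log2 fold change was -0.77, against -0.01 for all genes. In KO 5 were higher and 12 lower, beside 13.1% and 15.2% of all genes, with a median of -0.43 against -0.02. Of the 25 family genes, 16 were called in both genotypes, all in the same direction. The comparisons share no samples but come from the same fit, and the matching share over all genes was not computed. Some family genes were near the floor, as Kcnt1 and Kcnq3 at 0.30 CPM and Kcne3 at 0.58 CPM in WT ns. Kcnk12, the THIK-2 gene, fell from 22.2 ± 7.81 to 3.52 ± 0.77 CPM in WT (SD, n = 6 each) and from 14.7 ± 5.04 to 2.96 ± 1.12 CPM in KO (n = 8 each). Its log2 fold changes of -2.61 ± 0.34 (adjusted p 1.19e-06) and -2.30 ± 0.29 (adjusted p 6.3e-07) are opposite in sign to those of Kcnk13, which was called in WT. Kcnma1, the large-conductance calcium-activated channel gene, fell with log2 fold changes of -2.80 ± 0.39 in WT and -2.41 ± 0.34 in KO. Kcnj9, a G-protein-gated inward rectifier gene, fell with -2.62 ± 0.50 and -2.51 ± 0.43. The inward rectifier genes Kcnj12 and Kcnj16 had log2 fold changes of -5.18 ± 0.66 and -2.92 ± 0.36 in WT, with means of 0.058 and 0.28 CPM after LPS, where fitted fold changes rest on few counts. Without the samples standing apart 6 were higher and 12 lower of 26 in WT, and 7 higher and 13 lower in KO. Over all genes 54.6% were then called in WT (27.9% higher, 26.7% lower) and 55% in KO (27.9% higher, 27.2% lower).

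**Figure D5:**
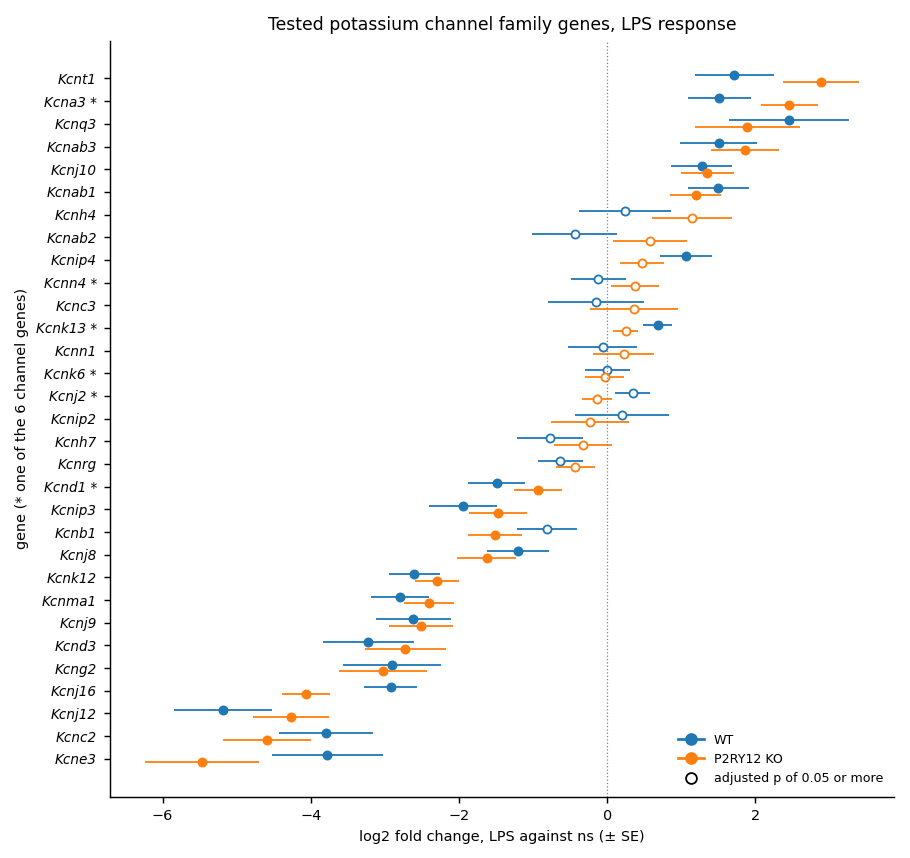
Log2 fold change (± SE) of LPS against ns in WT (blue) and KO (orange) for the 25 tested Kcn family genes and the 6 channel genes (marked with a star); filled points have an adjusted p under 0.05. Kcna3 lies near the top and Kcnd1 in the lower part, and Kcnk12 lies well below Kcnk13.

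Between genotypes 0 of the Kcn family genes were called in the sex experiment (77 tested) and in the LPS experiment (25 tested). Kcnk12 was at 23.98 ± 5.01 CPM in male WT (n = 4) and 19.6 ± 2.17 in male KO (n = 5), and at 21.96 ± 3.60 in female WT (n = 4) and 17.9 ± 2.17 in female KO (n = 5). Its averaged log2 fold change was -0.29 ± 0.10 (adjusted p 0.333). Without the 2 libraries high in neutrophil markers, a choice made after seeing the data, it was -0.38 ± 0.08 (adjusted p 0.0226). Then 1 of 79 family genes was called, beside 0.969% of all genes (0.0815% lower in KO). Kcnk12 was picked for these comparisons after its values were seen. In ns samples of the LPS experiment its log2 fold change was -0.57 ± 0.30 (adjusted p 0.572).

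Genes that bind or modify these channels moved both ways with LPS, and some of them are also in the Kcn family list. Of 18 tested, 5 were higher and 3 lower in WT, and 4 higher and 4 lower in KO, beside 30.3% and 28.3% of all genes called. When the samples standing apart were left out, 7 were higher and 5 lower in WT and 8 higher and 4 lower in KO, beside 54.6% and 55%. Nme2, which encodes the histidine kinase that activates KCa3.1, rose by 2.16 ± 0.41 in WT (adjusted p 0.000181) and 1.31 ± 0.34 in KO (adjusted p 0.00448), and Pik3c2b, a lipid kinase gene needed for KCa3.1 activity in T cells, fell by 1.74 ± 0.37 in WT (adjusted p 0.000594). The beta subunit genes Kcnab3 and Kcnab1, which partner voltage-gated channels of the Kv1 type, rose by 1.51 ± 0.52 and 1.498 ± 0.41 in WT and by 1.86 ± 0.46 and 1.19 ± 0.35 in KO. Kcnip3, whose product can bind Kv4 channels, fell by 1.94 ± 0.46 in WT and by 1.47 ± 0.40 in KO. Between genotypes 0 of these were called with all samples in either experiment. Without the 2 libraries high in neutrophil markers Nme2 was higher in KO by 0.29 ± 0.06 averaged over the sexes (adjusted p 0.00911). In females it was higher by 0.41 ± 0.08 (adjusted p 0.0102). In those comparisons 0.969% and 0.602% of all genes were called. In ns samples of the LPS experiment, without those standing apart, the difference of Nme2 was 0.08 ± 0.11 (adjusted p 0.799).

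Among transporters that set the potassium gradient and cell volume, Slc12a2, the sodium-potassium-chloride importer NKCC1, fell with LPS by 1.19 ± 0.27 on the log2 scale in WT (adjusted p 0.00139) and by 1.47 ± 0.24 in KO (adjusted p 2.24e-05). The potassium-chloride exporter genes Slc12a4 and Slc12a7 rose in KO by 1.22 ± 0.35 (adjusted p 0.00879) and 1.16 ± 0.38 (adjusted p 0.02). Without the samples standing apart they also rose in WT, by 1.14 ± 0.11 (adjusted p 6.42e-09) and 0.96 ± 0.12 (adjusted p 7.63e-07).

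Among 11 other microglial ion channel genes, 3 were higher and 3 lower in WT and 3 higher and 1 lower in KO, beside the same 30.3% and 28.3%. When the samples standing apart were left out, 6 were higher and 3 lower in each genotype, beside 54.6% and 55%. The ATP-gated P2rx4, the proton channel Hvcn1 and the pannexin Panx1 rose in both genotypes, P2rx4 by 0.97 ± 0.13 in WT (adjusted p 1.58e-06) and 0.84 ± 0.11 in KO (adjusted p 1.48e-06). P2rx7 and Trpm4 fell in WT by 0.74 ± 0.23 (adjusted p 0.0131) and by 0.69 ± 0.25 (adjusted p 0.0334). In the sex experiment Trpm4, a calcium-activated cation channel, was higher in KO by 0.25 ± 0.05 averaged over the sexes (adjusted p 0.0394). Its KO against WT difference in ns samples of the LPS experiment, without those standing apart, was -0.03 ± 0.10 (adjusted p 0.933). Of the 8 genes of potassium efflux and the inflammasome, 3 were higher in WT, Il1b, Casp4 and Nlrp3, and in KO 2 were higher, Il1b and Casp4, and 1 lower, Nek7, which links potassium efflux to NLRP3. When the samples standing apart were left out, 5 of these 8 were higher and 1 lower in each genotype. Of P2ry12 and the G-protein beta and gamma subunit genes, 9 tested, 2 were lower in WT, P2ry12 and Gnb5, and 3 in KO, with Gng2 as the third. When those samples were left out, 2 were higher and 3 lower in WT and 3 higher and 4 lower in KO. With every library in its label group no gene of any list was called in WT, since 0 of all genes were.

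The genes whose levels most resembled each channel gene were read over all samples as a description, since the points share libraries, depth and the shift of the samples standing apart. Over the 32 samples of the LPS experiment Kcna3 was most like Hivep2 (Pearson r of log2 CPM 0.901), Kcnd1 like Adgrg1 (0.984), Kcnk6 like Zdhhc1 (0.974), Kcnk13 like Tnfrsf12a (0.876), Kcnj2 like Taf12 (0.825) and Kcnn4 like S1pr2 (0.833). Without the samples standing apart, over 26 samples, the highest were Cd72 for Kcna3 (0.927), Usp35 for Kcnd1 (0.978), Setdb1 for Kcnk6 (0.761), Cinp for Kcnk13 (0.934), Far1 for Kcnj2 (0.762) and Lgals1 for Kcnn4 (0.853). For every one of the 6 the nearest gene changed. Over the 18 samples of the sex experiment the nearest were Tmcc3 for Kcnk13 (0.901), 2510009E07Rik for Kcnk6 (0.930), Hook3 for Kcnj2 (0.850), Foxp4 for Kcnn4 (0.892) and Slco2b1 for Kcnd1 (0.904).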

How the data were processed

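Polyadenylated RNA of CD11b-positive brain cells was sequenced on a NovaSeq instrument, per the labels. Each of the 2 experiments has a table of gene counts, deposited by the authors without normalization. The submitters' processing notes name FastQC, STAR 2.6.1, featureCounts, Subread and DESeq2 with build GRCm39; the strand setting is not given in the sources used here. Of 57 labelled libraries, 6 repeat libraries of the sex experiment were not analysed here, and 0 columns lacked a sample.

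Counts were filtered with filterByExpr by label group, scaled by TMM and tested with edgeR 4.0.16 in R 4.3.3 (quasi-likelihood test, robust, 1 fit per experiment with a mean per group, Benjamini-Hochberg adjustment over all genes tested, threshold 0.05). The LPS fit had the library set as a covariate, the 4 WT libraries of number 2 as groups of their own, and WT LPS 8 and WT LPS 9 summed. SE is the log2 fold change divided by the root of its F value, and 95% intervals follow from it. Length per kb is the union of exons in GENCODE M21. The procedure was tested on simulated data.

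Alternatives were DESeq2 1.42.0, RLE scaling, no filter, a mean of at least 1 CPM, a replicate block, only the groups compared, fits that drop each sex-experiment sample, every library in its label group, no number 2 library, WT LPS 8 and WT LPS 9 apart, no set covariate and each set alone. Added after seeing the data were fits without the 6 samples standing apart (first component above 50), in the same way with every library in its label group, and without the 2 libraries with summed neutrophil markers above 20000 CPM. The 6 genes and the lists were chosen with earlier results of these data known. All 6 genes were tested in each comparison, but not every value is given. From each list up to 5 called genes with a mean of at least 1 CPM are named by largest change, with P2ry12 always. Up to 3 most similar genes per member were computed. Kcnk12 in genotype comparisons was added after its values were seen. Some members of the list on the potassium gradient and cell volume, and that list's counts, are not reported here.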

Additional observations from a re-analysis of the deposited data

Results flagged for a closer look

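Of 48 groups of samples examined for 1 value far from the rest (chance gives about 1 in 20), 11 had such a value. In the sex experiment male WT 5, the library highest in neutrophil markers, was low in Kcnk13 (66.7 CPM, next 86.6) and in Kcnd1 (44.3 CPM, next 69.8). Female KO 1 was low in Kcnk13 at 70.3 CPM, female KO 4 low in Kcnk6 at 205 CPM, and female KO 3 high in Kcnj2 at 60.7 CPM.

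In the LPS experiment all 6 such values belong to 3 samples that stand apart on the first principal component. KO ns 6 was high in Kcnk13 at 119.3 CPM. WT LPS 7 was low in Kcnk6 at 159 CPM and high in Kcnj2 at 170.3 CPM. KO LPS 5 was low in Kcnk13 at 46.3 CPM and in Kcnk6 at 93.9 CPM and high in Kcnj2 at 134.5 CPM.

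The WT libraries of number 2 that entered no comparison exceeded every other WT ns sample in several genes. Under the label WT ns 1 were 107.7 CPM of Kcnk13 (highest of the others 79.8), 492 CPM of Kcnk6 (433), 89.1 CPM of Kcnj2 (76.9) and 4.64 CPM of Kcna3 (2.44). Under the label WT ns 5 were 131.6 CPM of Kcnj2 and 6.05 CPM of Kcna3.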

How the results depend on the processing

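Over 1122 refits of the 60 results of single channel genes, 0 turned the direction of a called result, 11 lost a call and 6 gained one, and 76 changed sign while uncalled in both fits. The number of the 6 genes called after LPS in WT, 3 as reported, was 0 with every library in its label group and 0 in library set 2 alone. It was 3 with label groups but without the samples standing apart, where Kcnk13 was at 0.39 ± 0.14 (adjusted p 0.0351), Kcna3 at 1.10 ± 0.36 (adjusted p 0.0252), Kcnd1 at -0.88 ± 0.29 (adjusted p 0.0244) and 5177 genes were called. In KO, 2 as reported, it was 1 without a filter, 1 with every library in its label group, 1 without the set covariate and 0 in set 2 alone, where Kcna3 still rose by value, at 2.28 ± 0.75 (adjusted p 0.112). In set 1 alone Kcnk13 was called in KO at 0.45 ± 0.12 (adjusted p 0.00827). For females against males it was 1 with DESeq2, and leaving out each sample gave 0 to 1, against 0. For KO against WT averaged over the sexes it was 1 without the 2 libraries high in neutrophil markers, against 0. Except where the alternative itself leaves fewer samples, the cause was not tested. Of 96 group levels under other scalings 0 moved by more than the SD.

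Counts over all genes moved more. LPS calls in WT, 4811, ran from 0 (every library in its label group) to 8692 (without the samples standing apart), and in KO, 4481, from 756 (set 2 alone) to 8765. Calls between genotypes ran from 1 to 58 in ns (14 reported), 0 to 50 in LPS samples (15), 2 to 24 in males (3), 3 to 213 in females (52) and 54 to 359 in the average (137), and between the sexes from 167 to 754 (273).

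Same-numbered samples correlated with a mean r of 0.105 in males and 0.147 in females, with single pairs below 0.1, and LPS libraries with 0.0796, with pairs from -0.436 to 0.768. Samples of different numbers had a mean r of -0.0226 in males, -0.0365 in females and -0.00391 in the LPS experiment. Same-numbered samples were thus more alike on average. As not every pair was above 0.1, the numbers were not taken to pair samples, a rule that cannot exclude pairing. The samples standing apart all have number 2 or 3 of set 2. The replicate block changed 0 of 60 calls of the channel genes, with 3 called after LPS in WT and 2 in KO. Over all genes it called 5 in males, 85 in females and 181 in the average, against 3, 52 and 137 without it. Between genotypes in LPS samples it called 36, against 15. Counts were low for Kcna3, with 0 to 71 per ns sample outside WT ns 4 and the WT libraries of number 2, and for Kcnn4, with 20 in KO LPS 5.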
